A study of Rattus norvegicus with 32 samples.

Results

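Integrins and the proteins that gather at their cytoplasmic side were followed in C6 cells, a rat glioma line, after treatment with angiotensin II (Ang II) and antagonists of its receptors. Members were the array probes for transcripts whose gene name was a numbered integrin alpha or beta subunit, or 1 of a list of focal adhesion genes given by name. The rule found 34 genes, measured by 45 probes, out of 26583 gene names and 30367 probes on the array. Of the names listed, Tln2 was not found on the array under that name. The integrins with lettered names, such as Itgav, lie outside the rule.

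Cells at confluence were left untreated (Control), received 100 nM Ang II, or received 100 nM Ang II after 30 min with 10 µM of Losartan (Ang II+Los), an antagonist of the AT1 receptor, or of PD123319 (Ang II+PD123319), an antagonist of the AT2 receptor. RNA was taken after 3 h and after 6 h of Ang II, and each of the 8 groups had 4 replicates with 1 single-dye Agilent array each. The labels give replicate numbers and do not say how far replicates were separate cultures. The p-values rest on the spread left among these samples once differences between replicate numbers are removed. This need not be the spread between cultures. The cells are a single established line, and no group received an antagonist without Ang II.

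Integrins are pairs of an alpha and a beta subunit that span the membrane and bind matrix proteins such as collagen, fibronectin and laminin. Talin and kindlin bind the beta tail and activate the pair, and the complex of Ilk, Lims1 and Parva ties the tail to actin. Focal adhesion kinase (Ptk2), its relative Ptk2b and Src then phosphorylate docking proteins such as Bcar1 and paxillin (Pxn), and the adaptor Crk brings in Dock1, which activates Rac. In glioma cells this machinery is known for adhesion to the matrix and for migration.

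Values are the log2 of the background-subtracted spot signal after cyclic loess among the 16 arrays of a time interval, averaged over the probes of a gene. They are relative signals, so levels of different genes are not compared. A gene was tested when all 4 arrays of some group had a probe of it well above background, which left 13630 genes at 3 h and 16448 at 6 h. Among the members, 27 genes were tested at 3 h and 31 at 6 h. Itgb2, Itgb3 and Itgb7 were tested at neither time, and their best probes were well above background on 0, 1 and 0 of 16 arrays at 3 h and on 0, 2 and 1 at 6 h. Itga2, Itga11, Itgb8 and Nedd9 were above background on 3, 9, 10 and 9 arrays at 3 h and on all 16 at 6 h. The scanner software used a different detection setting at each time, so these counts do not compare 3 h with 6 h.

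Between 55.9% and 64.7% of the spots of an array were well above background at 3 h and between 64.2% and 79.8% at 6 h. Of the glial genes looked up, S100b, Vim, Nes, Sox9 and Cnp were above background on all arrays, whereas Gfap was above it on 0 arrays at 3 h and 2 at 6 h, and the defining astrocyte transporter gene Slc1a3 on 0. The leukocyte marker Ptprc and the endothelial markers Pecam1 and Tek were on 0 arrays at both times. Cd3e was on 0 arrays at 3 h and 1 at 6 h, Kdr was on 6 and 11, and Syp on 1 and 5, respectively. Aif1, Cd68, Snap25 and Tubb3 were on all arrays, and Csf1r and Cdh5 on 12 at 3 h and 16 at 6 h. The Ang II receptor genes Agtr1a, Agtr1b and Agtr2 were well above background on 0 of 16 arrays at both times. Each slide carried all 4 groups of a replicate number in the same positions, so position on the slide and treatment cannot be told apart. Slides were read in different scans, numbered 1 and 2 at 3 h (replicates 1 and 2, and replicates 3 and 4) and 3 and 4 at 6 h (replicates 1 to 3, and replicate 4), and each scan held all 4 groups.

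Genes were compared by limma with the slide as a block, and a gene passed when its unadjusted p was under 0.05, the limit of the study. After Benjamini-Hochberg adjustment over all genes, limma gave 0 genes with an adjusted p under 0.05 in any comparison, members included. The share of all genes that passed is therefore given beside each count of members. Comparisons with an antagonist use the same Ang II arrays as the comparisons of Ang II with Control, and their values are set side by side only.

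The probes behind the members with the clearest differences at 6 h are shown to say which stretch of a transcript was measured. Each is a 60-base oligonucleotide, of which the first 30 bases from its 5′ end are printed, with the position of the whole probe on rn4 per the file headers. No base is marked.
Itga10, probe A_64_P061012, chr2:191465132-191465191, plus strand: caagttaggaactgagaagggcagtgtcct
Itga10, probe A_64_P061017, chr2:191467882-191467941, plus strand: cctgggggttgtcacggtgagcagatgatc
Itga9, chr8:123839046-123839105, plus strand: gtggcttcagaccaagtagatctagtgggc
Itgb4, chr10:106116571-106116630, plus strand: caaaaagctggagccgacacaaggacccag
Crk, chr10:63040354-63040413, plus strand: ctatacaattttcttacaggtgtcaaagca
Ptk2b, probe A_44_P482346, chr15:45589471-45589530, minus strand: tggctctcttgtacagtgtacattggaatt
Ptk2b, probe A_64_P154484, chr15:45589698-45589757, minus strand: tgacatagttcataggggtacttctgccag
Ptk2b and Itga10 were each measured by a pair of probes at 6 h, whereas Crk, Itga9 and Itgb4 rested on 1 probe.

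**Figure D1:**
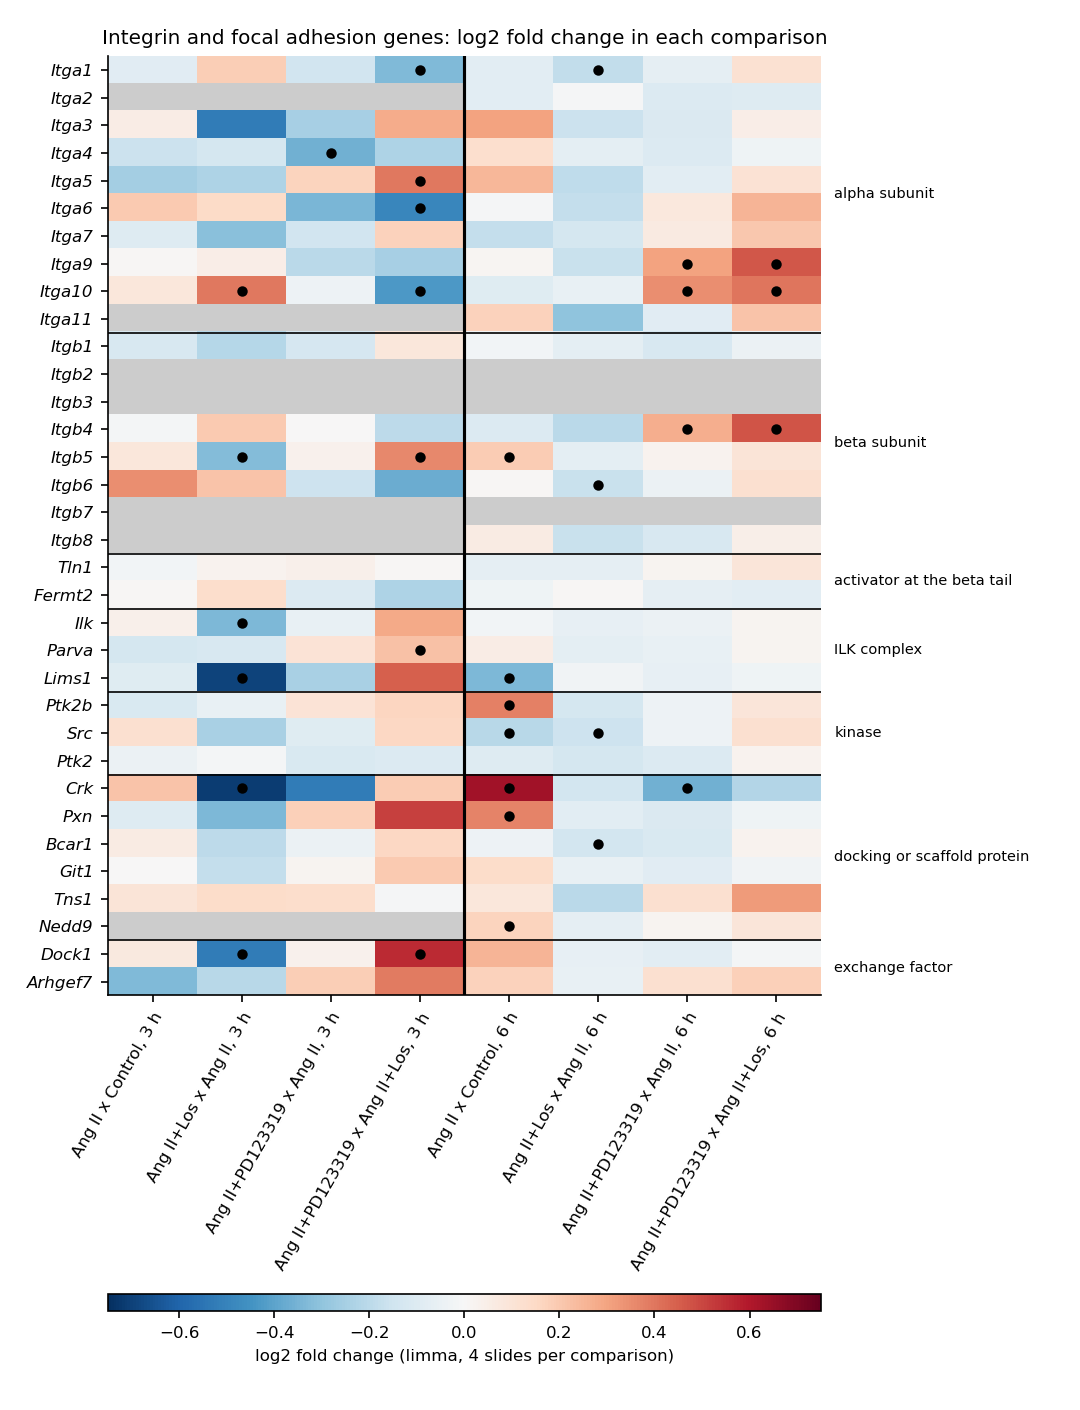
Log2 fold change of each member gene (rows, grouped by role) in the 4 comparisons at 3 h and at 6 h (columns), with the colour scale in log2 units, a black dot where the unadjusted p was under 0.05 and grey where the gene was not tested. At 6 h, 30 of 31 members lie below 0 with Losartan against Ang II, and the members that passed with PD123319 are Itga10, Itga9 and Itgb4 above 0 and Crk below 0.

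At 6 h, Ang II x Control asks which members Ang II alone moved. Crk and Ptk2b had the lowest p-values among the members, and both were higher with Ang II, together with Pxn, Itgb5 and Nedd9. Lims1 and Src were lower. The 7 members that passed, 5 higher and 2 lower, made up 22.6% of the 31 tested, a share near the 21.5% of all genes that passed, of which 10.6% were higher and 10.9% lower. The median log2 fold change of the members was 0.02, and 17 were above 0 and 14 below. The signals of the 6 members that are followed most closely at 6 h are plotted array by array.

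**Figure D2:**
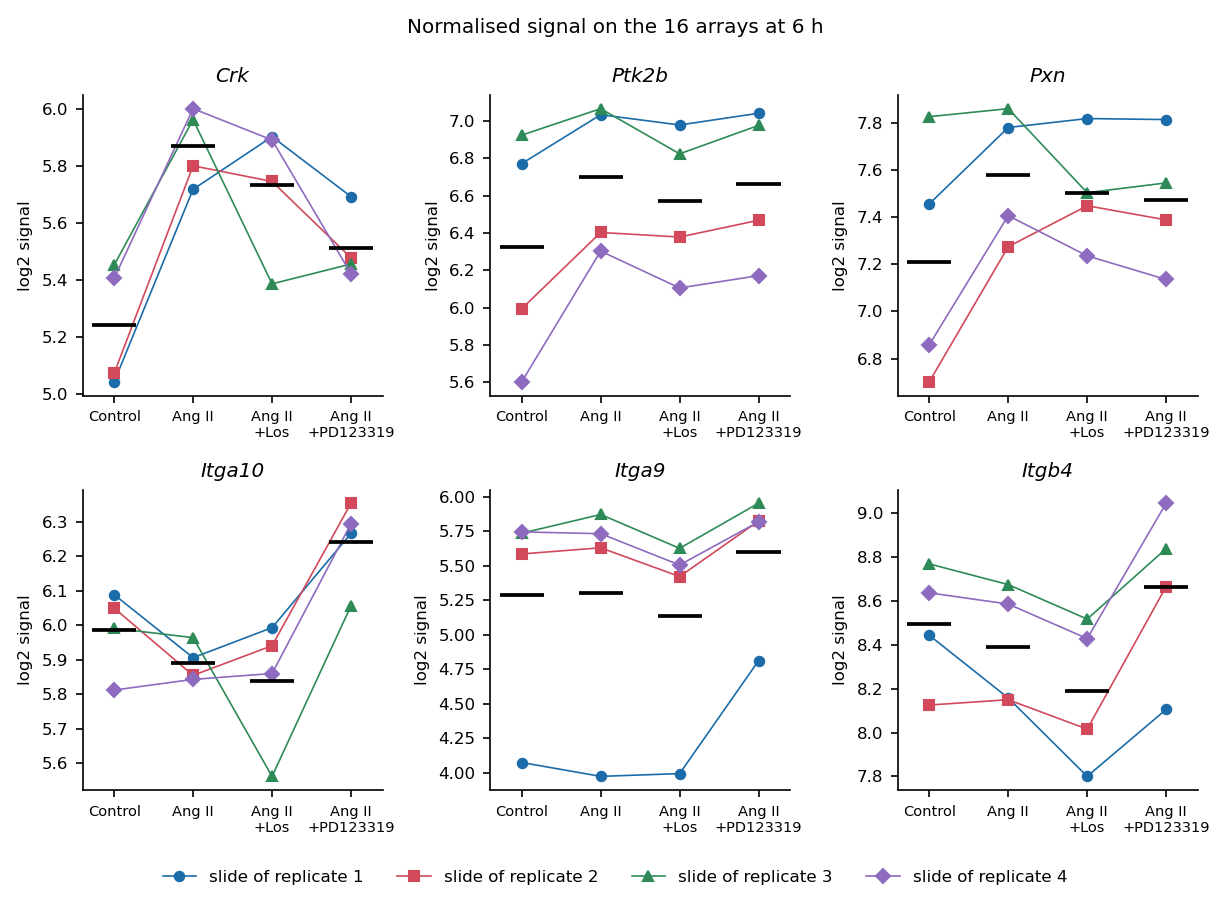
Normalised log2 signal of Crk, Ptk2b, Pxn, Itga10, Itga9 and Itgb4 on the 16 arrays of 6 h, by group, with lines joining the 4 arrays of a slide and black bars at the group means (n = 4). Crk lies between 5.04 and 5.45 in Control and between 5.72 and 6.00 with Ang II, and Itga10 lies higher in Ang II+PD123319 than in Ang II on every slide.

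Crk, the adaptor that reads phosphorylated Bcar1 and Pxn, had log2 signals of 5.04, 5.07, 5.45 and 5.40 in the Control replicates 1 to 4. With Ang II they were 5.72, 5.80, 5.96 and 6.00. All Ang II arrays lay above all Control arrays. The log2 fold change was 0.63 ± 0.13 (SE, n = 4 per group), a 1.55-fold difference with a 95% interval from 0.34 to 0.92 on the log2 scale, and limma gave a Benjamini-Hochberg (BH) adjusted p = 0.0677. This difference passed under all alternatives in which Crk could be tested, including the omission of each replicate number. Crk was not complete in the deposited values and was not tested there.

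Ptk2b encodes the calcium-responsive relative of focal adhesion kinase. Its log2 signals were 6.77, 5.99, 6.92 and 5.60 in Control and 7.03, 6.40, 7.07 and 6.30 with Ang II. The groups overlapped, because slides 1 and 3 were high in both, but Ang II was higher on all 4 slides, by 0.26, 0.41, 0.14 and 0.70. This gave a log2 fold change of 0.38 ± 0.092 (SE, limma, BH-adjusted p = 0.0909). Its probes gave 0.48 and 0.28, and both passed. Ptk2b passed without any 1 replicate, but not without the slide block and not in the paired test per gene. Focal adhesion kinase itself, Ptk2, had a log2 fold change of -0.10 with a 95% interval from -0.25 to 0.05, and it did not pass.

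Pxn, the docking protein paxillin, had log2 signals of 7.46, 6.70, 7.83 and 6.86 in Control and of 7.78, 7.27, 7.86 and 7.41 with Ang II. The groups overlapped, and slide 3 showed a difference of only 0.03, against 0.32, 0.57 and 0.55 on slides 1, 2 and 4. The mean difference was 0.37 ± 0.14 on the log2 scale (SE, limma, BH-adjusted p = 0.165), and it no longer passed without replicate 1 (0.39), replicate 2 (0.30) or replicate 4 (0.31).

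Lims1, which holds Ilk in the complex at the beta tail, was lower with Ang II on all 4 slides. Its log2 signals were 9.73, 9.80, 9.01 and 10.68 in Control and 9.12, 9.51, 8.87 and 10.38 with Ang II, so that the differences between slides exceeded those between groups. The mean difference was -0.34 ± 0.10 (SE, limma, BH-adjusted p = 0.122), and without replicate 1 it was -0.24 and did not pass. Its partners Ilk and Parva had log2 fold changes of -0.02 and 0.06 and did not pass.

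The kinase gene Src had log2 signals of 6.77, 6.84, 7.04 and 6.96 in Control and 6.76, 6.69, 6.72 and 6.61 with Ang II. All Ang II arrays lay below all Control arrays, with differences of -0.01, -0.16, -0.32 and -0.35 on slides 1 to 4. Src differed by -0.21 ± 0.071 (SE, limma, BH-adjusted p = 0.143), a difference lost without replicate 3 (-0.17) or replicate 4 (-0.16). Itgb5, the vitronectin-binding partner of Itgav, and Nedd9, a relative of Bcar1, passed narrowly with log2 fold changes of 0.19 and 0.17, each higher on 3 of 4 slides. Both lost the call without replicates 1 or 2, without the slide block and in the paired test per gene. Itgb5 also lost it without replicate 4 (0.16), and Nedd9 without replicate 3 (0.12). The Nedd9 probes went opposite ways, with -0.05 and 0.38, so that its value averages probes that disagree.

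None of the 10 alpha subunits tested at 6 h passed in Ang II x Control by limma, and their log2 fold changes ran from -0.18 for Itga7 to 0.30 for Itga3. The common beta subunit Itgb1 had a log2 fold change of -0.02 with a 95% interval from -0.18 to 0.15. The talin gene Tln1 and the kindlin gene Fermt2, whose products activate integrins, were at -0.07 and -0.03. Of the exchange factors, Dock1 was at 0.26 and Arhgef7 at 0.17, and neither passed. The 95% interval lay wholly within 0.5 of 0 on the log2 scale for 22 of 31 members, and the median half-width was 0.20.

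At 3 h, limma put 0 of 27 members past the limit in Ang II x Control, and a paired test per gene also gave 0. Of all genes, 12.8% passed, 5.37% higher and 7.40% lower. The median log2 fold change of the members was 0.00, the extremes were -0.33 for Arhgef7 and 0.35 for Itgb6, and the lowest adjusted p was 0.443. Crk was at 0.21 ± 0.30 (SE), and its Ang II signals of 4.79, 4.59, 4.95 and 5.27 overlapped the Control signals of 4.77, 4.93, 4.35 and 4.70. The intervals were wider than at 6 h, with a median half-width of 0.35, and 18 of 27 lay within 0.5 of 0.

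The change of Ang II x Control from 3 h to 6 h was tested in 1 model of both times, where 7.12% of all genes passed. Of the 27 members tested, 2 passed, both with a larger value at 6 h. For Ptk2b the change was 0.49 ± 0.15 (SE, limma, BH-adjusted p = 0.682), from -0.11 at 3 h to 0.38 at 6 h. At 3 h the Ptk2b probes went opposite ways, with 0.10 and -0.32, so that its 3 h value is uncertain. Itga5, the alpha subunit of the fibronectin receptor, went from -0.26 to 0.25, a change of 0.50 ± 0.22 (SE, limma, BH-adjusted p = 0.682), although it passed at neither time. The change of Crk, 0.41 ± 0.35 (SE), did not pass.

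PD123319 was compared with Ang II alone to ask which members depend on the AT2 receptor. At 6 h, 3 integrin subunits were higher with PD123319, namely Itga10, Itga9 and Itgb4, and Crk was lower. These 4 of 31 members stand beside 6.37% of all genes that passed, 3.88% higher and 2.49% lower. The median log2 fold change of the members was -0.06, and 10 were above 0 and 21 below. The other collagen-binding alpha subunits Itga1, Itga2 and Itga11 had log2 fold changes of -0.07, -0.10 and -0.09 and did not pass.

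Itga10, a collagen-binding alpha subunit that pairs with Itgb1, had log2 signals of 5.91, 5.86, 5.96 and 5.84 with Ang II and 6.27, 6.35, 6.06 and 6.29 with Ang II+PD123319. The groups did not overlap, and the smallest gap within a slide was 0.09, on slide 3. The mean difference was 0.35 ± 0.089 on the log2 scale (SE), or 1.28-fold with a 95% log2 interval from 0.16 to 0.54, and limma gave a BH-adjusted p = 0.479. Its probes gave 0.28 and 0.42, and both passed. The Control signals of 6.09, 6.05, 5.99 and 5.81 overlapped both groups, and Ang II x Control gave -0.09 and did not pass.

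Itga9 pairs with Itgb1 and binds tenascin. Its log2 signals were 3.97, 5.63, 5.87 and 5.73 with Ang II and 4.81, 5.82, 5.95 and 5.82 with Ang II+PD123319. Replicate 1 was low in all 4 groups, and it carried most of the difference, with 0.84 against 0.19, 0.08 and 0.09 on the other slides. On average it differed by 0.30 ± 0.11 (SE, limma, BH-adjusted p = 0.687), and without replicate 1 the difference was 0.14 and did not pass.

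Itgb4, which pairs with Itga6 as a laminin receptor, had log2 signals of 8.16, 8.15, 8.67 and 8.59 with Ang II and 8.11, 8.67, 8.84 and 9.05 with Ang II+PD123319. The groups overlapped, and PD123319 was higher on slides 2, 3 and 4 but not on slide 1. This was a mean difference of 0.27 ± 0.11 (SE, limma, BH-adjusted p = 0.743). It lost the call without replicate 2 (0.19), replicate 3 (0.31) or replicate 4 (0.21), with quantile scaling, without the slide block and in the paired test per gene. Its partner Itga6 was at 0.08 and did not pass.

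Crk, which was higher with Ang II than in Control, had log2 signals of 5.69, 5.48, 5.46 and 5.42 with Ang II+PD123319. All were below the lowest Ang II signal of 5.72, and all were at or above 5.42, within or above the Control range of 5.04 to 5.45. The log2 fold change against Ang II was -0.36 ± 0.13 (SE, limma, BH-adjusted p = 0.694), with differences of -0.03, -0.32, -0.51 and -0.58 on slides 1 to 4. Without replicate 2 it was -0.38 and without replicate 4 it was -0.29, and neither passed.

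The antagonists were also compared with each other at 6 h, where Itgb4, Itga9 and Itga10 were higher with PD123319 than with Losartan and no member was lower. Of all genes 8.06% passed, 4.82% higher and 3.25% lower, against 3 of 31 members. Itgb4 differed by 0.47 ± 0.11 (SE), Itga9 by 0.46 ± 0.11 and Itga10 by 0.40 ± 0.089, each higher on all 4 slides, with BH-adjusted p-values of 0.304, 0.288 and 0.272 by limma. The Losartan signals of Itga10 were 5.99, 5.94, 5.56 and 5.86, all below those with PD123319. For Itga9 they were 3.99, 5.42, 5.63 and 5.50, and for Itgb4 they were 7.80, 8.02, 8.52 and 8.43. These overlapped the PD123319 arrays of Itga9 and Itgb4 across slides, though not within a slide. Against Ang II, Losartan gave -0.05 for Itga10, -0.17 for Itga9 and -0.20 for Itgb4, and none passed. Crk was at -0.22 between the antagonists and did not pass. Itga10 passed under all 12 alternatives run on gene values in both of its comparisons at 6 h, single probes not counted.

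**Figure D3:**
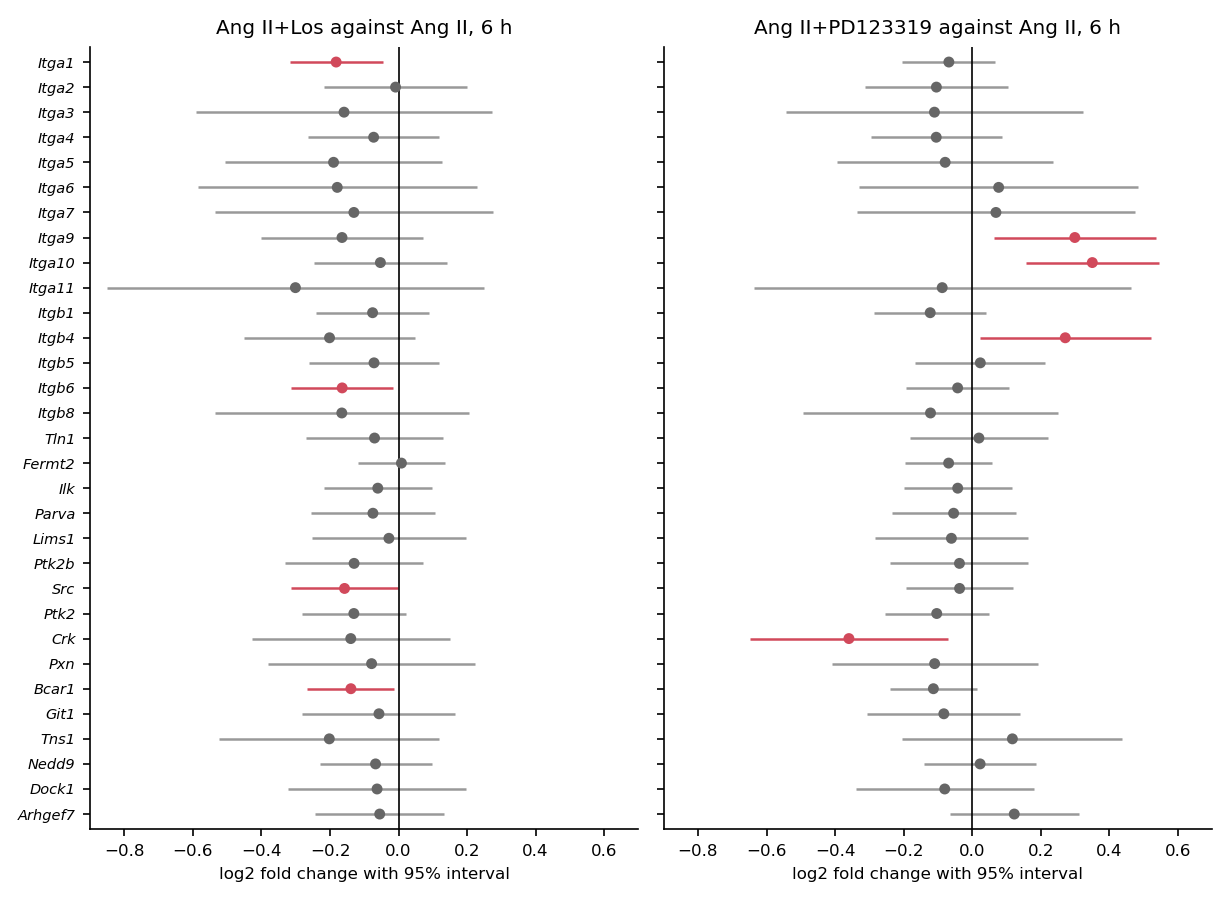
Log2 fold change at 6 h of each tested member for Losartan and for PD123319, each against Ang II alone, with 95% intervals from limma and red points where the unadjusted p was under 0.05. With PD123319, Itga10, Itga9 and Itgb4 lie above 0 and Crk below, whereas with Losartan Itga1, Itgb6, Src and Bcar1 pass and all lie below 0.

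At 3 h, none of these 3 subunits passed in Ang II+PD123319 x Ang II, with -0.04 for Itga10, -0.20 for Itga9 and 0.00 for Itgb4 on the log2 scale. Itga10 was measured by 1 probe at 3 h and by both at 6 h.

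The promoters of the members that moved with PD123319 are shown because Itga10 and Itga9 were higher together and Crk was lower. They were chosen after these values were seen. The 250 bases before the annotated start are from RefSeq on GRCr8, in the direction of transcription, and capitals mark matches on either strand to 6 motifs: the GC box GGGCGG, the CCAAT box CCAAT, the TATA box TATAAA, AP-1 TGANTCA, TEAD GGAATG and the E-box CACGTG. No entry for Itgb4 is printed.
Itga10, chr2:186871461-186871710, plus strand: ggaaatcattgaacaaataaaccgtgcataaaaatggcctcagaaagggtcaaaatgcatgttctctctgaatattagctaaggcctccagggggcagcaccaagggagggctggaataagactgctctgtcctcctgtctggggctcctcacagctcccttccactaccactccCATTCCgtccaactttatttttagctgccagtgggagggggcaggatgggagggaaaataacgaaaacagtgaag
Itga9, chr8:127185039-127185288, plus strand: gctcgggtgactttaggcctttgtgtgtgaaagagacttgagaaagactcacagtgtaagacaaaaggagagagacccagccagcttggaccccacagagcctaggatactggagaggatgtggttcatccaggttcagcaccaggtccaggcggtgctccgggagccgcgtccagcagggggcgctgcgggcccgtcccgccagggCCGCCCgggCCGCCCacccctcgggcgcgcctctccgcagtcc
Crk, chr10:61028667-61028916, plus strand: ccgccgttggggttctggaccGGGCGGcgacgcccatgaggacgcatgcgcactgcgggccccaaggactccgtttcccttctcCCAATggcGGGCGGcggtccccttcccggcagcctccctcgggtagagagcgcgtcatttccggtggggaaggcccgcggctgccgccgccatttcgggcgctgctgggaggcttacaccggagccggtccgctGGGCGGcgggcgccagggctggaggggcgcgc
The Itga10 window held a TEAD match and the Itga9 window GC boxes, and Crk held GC boxes and a CCAAT box. Their G and C content was 49.6%, 65.2% and 74.4%. Of 34 members, 24 matched an entry, with 27 windows in all. GC boxes were in 16 of these windows and in 30.5% of all 33469 windows, CCAAT in 8 and 34.0%, the TATA box in 2 and 12.9%, AP-1 in 0 and 6.34%, TEAD in 4 and 12.1%, and the E-box in 1 and 5.59%. Each motif was counted on its own, matches to different motifs may share bases, and a match describes these letters only.

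Losartan was compared with Ang II alone to ask which members depend on the AT1 receptor. At 6 h, nearly all members had values slightly below 0. The log2 fold change was below 0 for 30 of 31 members, beside 50.5% of all genes tested, and its median was -0.13, beside 0.00 for all genes. The exception was Fermt2, at 0.01. The members that passed were Itga1, Itgb6, Src and Bcar1, all lower, that is 4 of 31 beside 1.99% of all genes, of which 0.815% were higher and 1.18% lower. The lowest BH-adjusted p of a member was 1.00 by limma, after rounding, and none of the 4 reached the fold limits of 1.2 and 0.8.

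**Figure D4:**
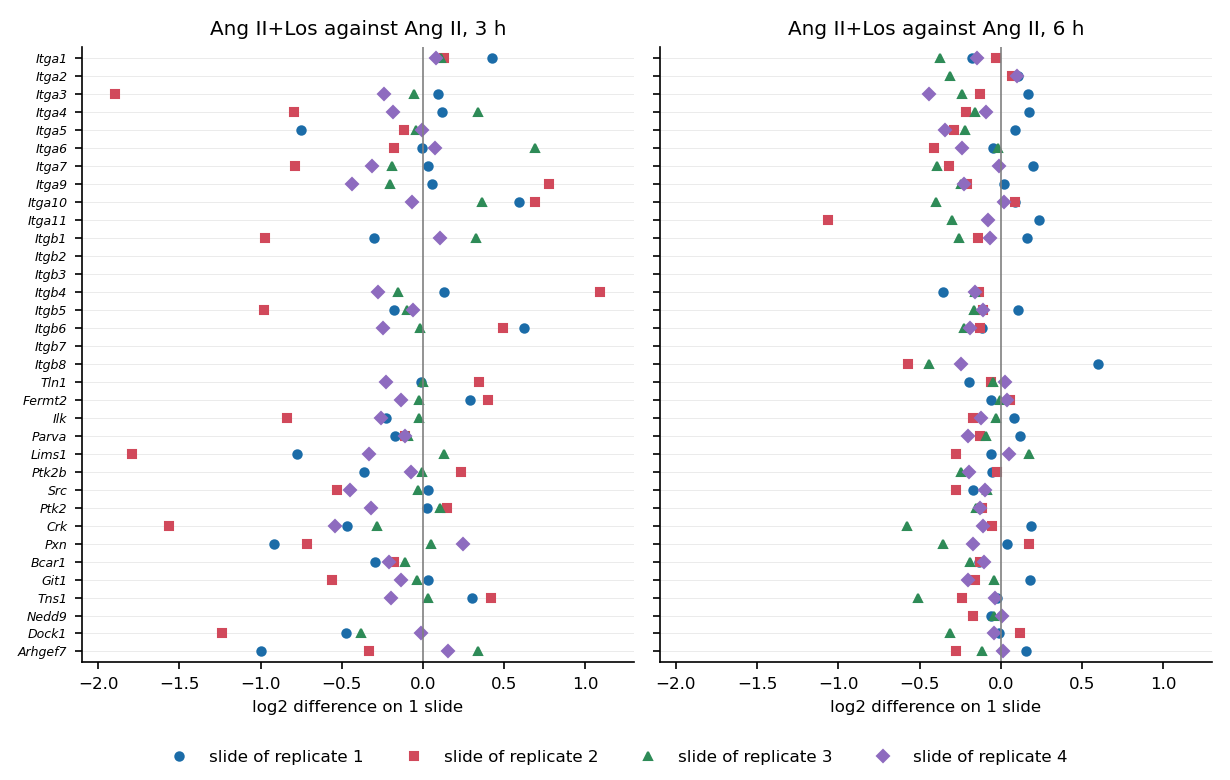
Difference in log2 signal between Ang II+Los and Ang II on each slide (replicates 1 to 4), at 3 h and at 6 h, with 1 point per member gene. At 3 h the members of slide 2 spread most, and at 6 h the numbers below 0 are 14, 26, 30 and 24 of 31 on slides 1 to 4.

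The direction was not even over the slides. Of 31 members, 14 were below 0 on slide 1, 26 on slide 2, 30 on slide 3 and 24 on slide 4, with medians of 0.04, -0.13, -0.22 and -0.11. Without replicate 3, 25 of 31 were below 0 with a median of -0.08, and 0 members passed by limma, beside 1.36% of all genes. The mean over the slides of scan 3, replicates 1 to 3, was below 0 for 31 of 31 members, with a median of -0.10. The slide of scan 4 gave 24 of 31 below 0 with a median of -0.11. All members share the same arrays, so their number is no measure of the certainty of the direction.

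Itga1, a collagen-binding subunit that pairs with Itgb1, had log2 signals of 12.62, 12.51, 12.66 and 12.40 with Ang II and 12.44, 12.48, 12.29 and 12.26 with Ang II+Los. The groups overlapped, and Losartan was lower on all 4 slides, with differences of -0.03 on slide 2 and -0.38 on slide 3. The mean was -0.18 ± 0.062 (SE), and without replicate 3 it was -0.12 and did not pass.

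Itgb6 pairs with Itgav and activates latent TGF-beta. Its log2 signals were 6.22, 6.02, 6.15 and 6.58 with Ang II and 6.10, 5.89, 5.93 and 6.40 with Ang II+Los. The groups overlapped, although all 4 slides were lower. Their mean was -0.16 ± 0.068 (SE). Src signals with Ang II+Los were 6.59, 6.41, 6.63 and 6.51, a mean difference of -0.16 ± 0.071 (SE) from Ang II. Src was thus lower with Ang II than in Control and lower again with Losartan, in comparisons that share the Ang II arrays. Itgb6 and Src stopped passing on the omission of any 1 replicate, with log2 fold changes from -0.18 to -0.14 and from -0.18 to -0.12.

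Bcar1, the Cas docking protein phosphorylated by Src, is described in full because the study also measured it by qPCR. At 6 h its log2 signals were 10.92, 10.63, 10.64 and 10.65 in Control, 11.02, 10.55, 10.59 and 10.54 with Ang II, 10.88, 10.42, 10.40 and 10.44 with Ang II+Los and 10.92, 10.41, 10.53 and 10.38 with Ang II+PD123319. Slide 1 was high in every group, and the groups overlapped. Ang II x Control gave -0.04, Losartan against Ang II -0.14 ± 0.058 (SE) and PD123319 against Ang II -0.11, and Losartan alone passed. Its probes gave -0.14 and -0.13 for Losartan, of which the second passed, and the omission of any 1 replicate ended the call, with values from -0.15 to -0.12. At 3 h the corresponding values were 0.06, -0.20 and -0.05, none passed, and the probes gave -0.36, which passed, and -0.04 for Losartan.

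At 3 h, Losartan gave 6 members past the limit, with Crk, Lims1, Dock1, Ilk and Itgb5 lower and Itga10 higher than with Ang II alone. Of all genes, 11.0% passed, 4.96% higher and 6.08% lower. The median log2 fold change of the 27 members was -0.18, and 18 were below 0. The BH-adjusted p was 0.424 for all 6 by limma, and none of them passed under all alternatives run.

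Slide 2 stood apart in these values. The standard deviation of the 27 member differences was 0.79 there, against 0.42, 0.23 and 0.19 on slides 1, 3 and 4, and 15 members differed by over 0.5 on slide 2, against 6, 1 and 1. Without replicate 2, 1 of 28 members passed, beside 1.98% of all genes, against 11.0% of all genes with every replicate. The median difference of the members was -0.25 in scan 1, replicates 1 and 2, and -0.10 in scan 2.

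Crk had log2 signals of 4.79, 4.59, 4.95 and 5.27 with Ang II and 4.32, 3.03, 4.67 and 4.73 with Ang II+Los. The groups overlapped, and Losartan was lower on every slide, most on slide 2. The mean difference was -0.71 ± 0.30 (SE), with means of -1.01 in scan 1 and -0.41 in scan 2. Without replicate 1 it was -0.80 and without replicate 4 it was -0.76, and neither passed. The call was also lost with another background correction (normexp, offset 50) and in the paired test per gene. The 1 probe of Crk was well above background on 15 of 16 arrays at 3 h.

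Dock1, the Rac activator that Crk recruits, had log2 signals of 6.91, 7.09, 6.46 and 6.50 with Ang II and 6.44, 5.86, 6.07 and 6.49 with Ang II+Los. The groups overlapped, and the difference was -0.01 on slide 4 and -1.24 on slide 2. Its mean was -0.53 ± 0.21 (SE), or -0.86 and -0.20 in scans 1 and 2, and the omission of replicate 1 (-0.55) or replicate 2 (-0.30) ended the call.

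Ilk, the pseudokinase at the core of its complex, had log2 signals of 12.20, 12.35, 12.21 and 12.25 with Ang II and 11.97, 11.51, 12.18 and 11.99 with Ang II+Los. The groups did not overlap, with differences of -0.03 on slide 3 and -0.84 on slide 2. The mean was -0.34 ± 0.14 (SE), or -0.54 in scan 1 and -0.14 in scan 2. It did not pass without replicate 1 (-0.37), replicate 2 (-0.17) or replicate 4 (-0.37).

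Its partner Lims1 was at -0.69 ± 0.26 (SE), with log2 signals of 8.53, 8.74, 9.62 and 9.89 with Ang II and 7.75, 6.95, 9.75 and 9.56 with Ang II+Los. Slides 1 and 2 were at -0.78 and -1.79, whereas slide 3 was at 0.13, and the scan means were -1.28 and -0.10. Itgb5 was at -0.33 ± 0.15, with scan means of -0.58 and -0.08, and it did not pass without any 1 replicate, at -0.41 to -0.12. Itga10 was at 0.39 ± 0.18, higher on 3 of 4 slides, with means of 0.64 and 0.15.

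PD123319 at 3 h moved 1 member past the limit, beside 2.98% of all genes, 2.13% higher and 0.851% lower. This was Itga4, a fibronectin-binding alpha subunit, with log2 signals of 4.99, 5.15, 5.45 and 5.46 with Ang II and 4.71, 4.51, 5.28 and 5.11 with Ang II+PD123319. The groups overlapped and all 4 slides were lower. The mean difference was -0.36 ± 0.15 (SE, limma, BH-adjusted p = 1.00 after rounding), and the omission of replicate 1 (-0.39), 2 (-0.26) or 4 (-0.37) ended the call. Between the antagonists at 3 h, 7 of 27 members passed, with Dock1, Itga5, Itgb5 and Parva higher and Itga6, Itga10 and Itga1 lower with PD123319 than with Losartan. Of all genes 14.7% passed there, 7.13% higher and 7.53% lower.

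These 7 values were larger in size on the slides of scan 1 than on those of scan 2, and each had a BH-adjusted p = 0.339 by limma. The laminin-binding Itga6 was at -0.49 ± 0.19 (SE), with log2 signals of 6.31, 6.27, 6.62 and 6.94 with Ang II+Los and 6.08, 5.38, 6.07 and 6.66 with Ang II+PD123319, and its scan means were -0.56 and -0.42. The groups overlapped across slides. Itga10 was at -0.43 ± 0.18, from 7.48, 8.11, 6.63 and 7.39 to 6.98, 7.00, 6.59 and 7.30, with scan means of -0.80 and -0.06. Its direction at 3 h, from 1 probe, was thus opposite to that at 6 h, from both probes, and this difference between times was not tested. Without a filter, the 3 h difference of Itga10 did not pass. Itga5 was at 0.40 ± 0.17, from 6.06, 7.25, 7.69 and 7.79 to 6.87, 7.92, 7.78 and 7.81, with scan means of 0.74 and 0.05.

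Itgb5 was at 0.36 ± 0.15, from 10.88, 9.76, 9.77 and 10.39 with Ang II+Los to 11.28, 10.64, 9.88 and 10.42 with Ang II+PD123319, and its scan means were 0.64 and 0.07. Itga1 was at -0.33 ± 0.13, from 13.07, 12.89, 12.67 and 12.49 to 12.50, 12.30, 12.58 and 12.42, with scan means of -0.58 and -0.08. In both, slides 1 and 2 held nearly all of the difference and the groups overlapped. Dock1 was at 0.56 and Parva at 0.22, with scan means of 0.99 and 0.13 and of 0.31 and 0.13. Without replicate 1 or without replicate 2, Itga10, Itga5, Itgb5 and Itga1 no longer passed, with values of -0.41 and -0.20, 0.27 and 0.32, 0.34 and 0.19, and -0.26 and -0.24 in that order. Itga6 did not pass without replicate 2 (-0.34) or replicate 3 (-0.47). Dock1 did not pass without replicate 1 (0.56) or replicate 2 (0.27), and Parva stopped passing on the omission of any 1 replicate (0.18 to 0.27).

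Genes that work beside the members were counted from lists set by function. Of 12 genes that link focal adhesions to actin, 11 were tested at 6 h, and 4 were higher and 1 lower with Ang II than in Control, beside 21.5% of all genes that passed. Vasp and Enah, whose products speed actin polymerisation, were at 0.45 and 0.34. Vcl, which joins talin to actin, was at 0.34, and the actin crosslinker Actn1 at 0.39. Tes was lower, at -0.22. Vasp, Enah and Vcl passed without any 1 replicate, whereas Actn1 did not without replicate 1 (0.28) or 4 (0.32), and Tes did not without replicate 1 (-0.21), 2 (-0.15) or 4 (-0.21). With PD123319 at 6 h, 11 of 11 were below 0, beside 51.5% of all genes, and 1 passed, beside 6.37%, namely Vcl at -0.25, which was lost without replicate 2 (-0.20) or 4 (-0.22). With Losartan 10 of 11 were below 0, beside 50.5% of all genes, and 0 passed by limma at an unadjusted p under 0.05, beside 1.99%. Between the antagonists 0 passed by limma, beside 8.06%. At 3 h, 1 of 11 was lower with Ang II (12.8% of all genes passed), 3 were lower with Losartan (11.0%), 0 passed with PD123319 (2.98%) and 4 were higher with PD123319 than with Losartan (14.7%). The gene lower with Ang II was Zyx (-0.44), which passed at 3 h without any 1 replicate and was not among those that passed at 6 h.

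Of 12 relatives or partners of the members, 9 were on the array. The shares of all genes given for the actin list also stand beside the counts that follow. At 6 h 8 were tested, with Kank1 higher with Ang II (0.21), Tgfb1i1 lower with PD123319 (-0.34) and 0 past the limit in the other comparisons by limma. At 3 h 6 were tested, with Crkl, the closest relative of Crk, higher with Ang II (0.32), 3 lower with Losartan, 0 past the limit with PD123319 and 3 higher between the antagonists. Of 19 signalling genes next to the kinases, 17 were tested at each time. With Ang II at 6 h 4 of 17 passed, or 23.5% beside 21.5% of all genes, and at 3 h 1 of 17, or 5.88% beside 12.8%. At 6 h, Ptpn12, a phosphatase that acts on Bcar1, was higher with Ang II (0.30), as were the kinase gene Pak2 (0.26) and Rap1b (0.23), whereas Ptpn11 was lower (-0.20). Pak1 was lower with Losartan, and 0 passed in the other comparisons at 6 h. At 3 h, 1 was higher with Ang II (Elmo2), 1 lower with Losartan (Rac1) and 1 lower with PD123319 (Pak2), and between the antagonists 2 were higher and 2 lower, that is 23.5% beside 14.7%. Of the genes named in these 2 lists, Ptpn12 and Pak2 with Ang II at 6 h passed without any 1 replicate. Kank1 did not pass without replicate 1 (0.14) or 4 (0.21), nor Rap1b without replicate 1 (0.13) or 3 (0.18). Ptpn11 did not without replicate 2 (-0.14) or 4 (-0.15), nor Pak1 with Losartan without replicate 1 (-0.13), 2 (-0.14) or 4 (-0.15). Tgfb1i1 with PD123319 did not without replicate 2 (-0.27), 3 (-0.33) or 4 (-0.30). At 3 h, Crkl did not pass without replicate 3 (0.33) or 4 (0.23), nor Elmo2 without replicate 2 (0.31) or 4 (0.39). Rac1 at 3 h did not without replicate 1 (-0.51) or 2 (-0.27). Pak2 with PD123319 at 3 h stopped passing on the omission of any 1 replicate (-0.41 to -0.27). Without replicate 2, none of the genes of the actin, partner and signalling lists that passed between the antagonists at 3 h still passed, and with Losartan at 3 h Csrp1 alone did. Of all genes, 2.75% and 1.98% passed there without replicate 2.

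Genes with more than 1 probe differed in how well the probes matched. At 6 h, the probes of the same gene had opposite signs in 4 of 10 genes in Ang II x Control, 2 in each antagonist against Ang II and 6 between the antagonists. At 3 h the numbers were 3 of 6 for Ang II x Control, 2 for Losartan, 4 for PD123319 and 1 between the antagonists. The probes of Itga1 and Lims1 span introns by their coordinates, and those genes rest on 1 probe each.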

How the data were processed

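RNA of 32 C6 samples was hybridised to 1 single-dye Agilent array each. Agilent Feature Extraction 9.5.3.1, per the file headers, gave a background-subtracted intensity per spot, and the authors deposited that intensity and, per probe, its log2 without scaling between arrays, with 38.2% of the values blank. Here outlier-flagged spots were left out, spots of a probe were averaged, dim 3 h signals took the error of the signal as the 6 h software had done, and probes with more than 2 gaps were dropped. The log2 intensity was normalised by cyclic loess among the 16 arrays of a time (3 iterations, span 0.7). The fit over all genes used limma (version 3.58.1), R (4.3.3) and the package data.table (1.17.8), with the replicate number, that is the slide, as a block. Samples with the same number deviated together, with correlations from 0.15 to 0.92. Members and lists were chosen with earlier results of these data known. All members with an unadjusted p under 0.05 were named, and up to 5 per comparison that also kept 1 direction on all 4 slides were described in full, with Bcar1. The limma fit of Ang II x Control within a time was tested on simulated data, and the other steps were not. Precision is limited by the number of arrays. Over all genes, standard errors had a median of 0.16 (3 h) and 0.10 (6 h). Alternatives were no replicate block, 75th percentile and quantile scaling, normexp (offset 50), no filter and a stricter one, single probes, the fold limits, the deposited values, the methods' t-test as a paired test, and the omission of each replicate number. Plots used matplotlib 3.10.9, pandas 2.3.3 and numpy 2.4.6 under Python 3.11.15. The qPCR and network data were not analysed here.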

Additional observations from a re-analysis of the deposited data

Results flagged for a closer look

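Within 84 groups of 4 arrays, 9 had an extreme array farther from the others than Dixon's limit, where chance gives about 1 group in 20. At 6 h the replicate 1 array of Itga9 was the lowest in all groups, at a log2 signal of 4.08 in Control, 3.97 with Ang II, 3.99 with Ang II+Los and 4.81 with Ang II+PD123319. The replicate 1 array of Bcar1 was the highest at 6 h in 3 groups, at 10.92 in Control, 11.02 with Ang II and 10.88 with Ang II+Los. Itga5 was lowest at 6.87 in replicate 1 of Ang II+PD123319 at 3 h, and Lims1 was highest at 10.43 in replicate 4 of Ang II+Los at 6 h.

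In Ang II x Control, the log2 fold change of Ptk2b was 0.49 higher at 6 h than at 3 h, and that of Itga5 was 0.50 higher, by the test of the change itself. In other comparisons all 4 slides went one way at 3 h and the other way at 6 h, a difference that was not tested. This held for Itga1 with Losartan against Ang II, at 0.19 at 3 h and -0.18 at 6 h. Between PD123319 and Losartan it held for Itga1 (-0.33 and 0.11), Itga10 (-0.43 and 0.40) and Itga6 (-0.49 and 0.26). Itga10 rested on 1 probe at 3 h and on 2 at 6 h.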

How the results depend on the processing

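The number of members past the limit changed with several settings. Without the replicate block it was 2 in place of 7 for Ang II x Control at 6 h, 1 in place of 6 for Losartan at 3 h, 0 in place of 4 for Losartan at 6 h, 0 in place of 7 and 1 in place of 3 between the antagonists at 3 h and 6 h, 0 in place of 1 and 2 in place of 4 for PD123319 at 3 h and 6 h, and 0 in place of 2 for the change with time. Of all genes, 4.03% passed without the block for Ang II at 6 h, beside 21.5% with it. For Losartan the shares were 2.53% beside 11.0% at 3 h and 0.225% beside 1.99% at 6 h. Between the antagonists they were 3.39% beside 14.7% and 1.03% beside 8.06%, and for PD123319 0.470% beside 2.98% and 0.754% beside 6.37%. The deposited values allowed a test of 19 members at 3 h and 21 at 6 h, in place of 27 and 31. They gave 3 for Ang II and 2 for each antagonist at 6 h, 3 for Losartan at 3 h and 1 for the change with time. Members not tested there could not be counted. Of all genes tested there, 22.7% passed for Ang II, 1.85% for Losartan and 6.42% for PD123319 at 6 h. For Losartan at 3 h 11.1% passed. The paired test per gene gave 3 for Ang II at 6 h, 2 for Losartan and 2 between the antagonists at 3 h, and 5 between them at 6 h. The share of all genes was not computed for the paired test, nor for the change with time under the alternatives. The fold limits left 4 for Ang II and 0 for Losartan at 6 h, beside 1884 and 148 of all 16448 genes. Scaling to the 75th percentile gave 5 between the antagonists at 6 h and 0 for PD123319 at 3 h, beside 9.38% and 3.46% of all genes. Without a filter, 1 passed for Ang II and 3 for PD123319 at 3 h, and normexp gave 1 for Ang II at 3 h and 1 for the change with time. Of all genes at 3 h, 10.3% and 4.01% passed without a filter, and 12.5% passed for Ang II with normexp. Omitting 1 replicate number gave 0 to 1 for Ang II at 3 h and 4 to 8 at 6 h, 1 to 6 and 0 to 4 for Losartan, 0 to 3 and 2 to 4 for PD123319, 1 to 9 and 3 to 4 between the antagonists, and 1 to 2 for the change with time. The shares of all genes ran from 5.74% to 13.4% and from 11.2% to 22.4% for Ang II. They ran from 1.98% to 13.8% and 1.36% to 4.78% for Losartan, and from 0.377% to 5.49% and 2.90% to 9.73% for PD123319. Between the antagonists they ran from 2.75% to 18.7% and 4.68% to 10.5%. The cause was not tested.

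Of the 18 passing values at 6 h, 3 passed under all alternatives in which they could be tested, single probes not counted. At 3 h 0 of 14 did. The 3 were Crk in Ang II x Control, which was not tested in the deposited values, and Itga10 in both PD123319 comparisons. Over the alternatives and the members described in full, Bcar1 included, 265 values kept their side of the limit. Of the others, 98 fell short of it, 5 passed newly and 6 reversed. The 6 were of Bcar1, none past the limit: with Ang II, -0.024 at 3 h without replicate 4 (up to 0.15 with another replicate omitted), and 0.020 from the deposited values and 0.014 from the probe A_64_P018617 at 6 h, and with PD123319 at 3 h, 0.012 from the deposited values, 0.0058 from that probe and 0.015 without replicate 4 (down to -0.14 with another omitted).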

Other observations

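Among 12 integrin ligands and matrix genes, 11 were on the array, 9 were tested at 3 h and 10 at 6 h. Lamb1, a laminin chain bound by Itga6 pairs, was lower with Ang II than in Control at 3 h (log2 fold change -0.44) and at 6 h (-0.61). At 3 h it passed without any 1 replicate, whereas at 6 h the slides gave 0.04, -1.30, -0.01 and -1.17, and the value was -0.38 without replicate 2 and -0.42 without replicate 4 and did not pass. At 6 h, Fn1 (-0.29) and the collagen gene Col1a1 (-0.25) were also lower and Thbs1 was higher (0.29), and at 3 h Lama5 was lower (-0.36). Fn1 did not pass without replicate 2 (-0.17), 3 (-0.31) or 4 (-0.28). Col1a1, which has no value for slide 3 in this comparison, did not without replicate 1 (-0.12), 3 (-0.24) or 4 (-0.28). Thbs1 did not pass without replicate 1 (0.30), 2 (0.26) or 3 (0.24). Lama5 at 3 h did not pass without replicate 1 (-0.38), 3 (-0.29) or 4 (-0.34). With PD123319 at 6 h, Col1a1 was higher (0.40), while Ctgf (-0.45) and Thbs1 (-0.42) were lower, and at 3 h Ctgf was lower (-0.66), and these 4 values passed without any 1 replicate. With Losartan, Lama5 (-0.33) and Thbs1 (-0.31) were lower at 6 h and Tnc was lower at 3 h (-0.77). Lama5 with Losartan did not pass without replicate 2 (-0.37), 3 (-0.21) or 4 (-0.36), and Thbs1 did not without replicate 1 (-0.32) or 3 (-0.18). The slides gave -0.30, -2.59, -0.01 and -0.18 for Tnc, which did not pass without replicate 1 (-0.92), 2 (-0.17) or 4 (-0.96). At 6 h, 9 of 10 ligand genes were below 0 with Losartan, beside 50.5% of all genes. Between the antagonists, Col1a1, Fn1 and Lama5 were higher with PD123319 at 6 h, at 0.42, 0.37 and 0.40. Col1a1 passed without any 1 replicate. Fn1 did not pass without replicate 3 (0.37) or 4 (0.26), and Lama5 did not without replicate 2 (0.39), 3 (0.35) or 4 (0.36). At 3 h Col4a1 (-0.48), Ctgf (-0.73) and Lamb1 (-0.33) were lower. Ctgf passed without any 1 replicate. Col4a1 did not pass without replicate 1 (-0.44) or 2 (-0.28), and Lamb1 did not without replicate 2 (-0.29) or 4 (-0.34). The counts that passed at 6 h were 4 of 10 with Ang II, 2 with Losartan, 3 with PD123319 and 3 between the antagonists, beside 21.5%, 1.99%, 6.37% and 8.06% of all genes. At 3 h they were 2 of 9 with Ang II, 1 with Losartan, 1 with PD123319 and 3 between the antagonists. Of all genes at 3 h, 12.8% passed with Ang II, 11.0% with Losartan, 2.98% with PD123319 and 14.7% between the antagonists. No adjusted p of these was under 0.05.

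Outside the naming rule, Itgav and Itgam were well above background on all 16 arrays at both times. Itgav, the partner of Itgb5 and Itgb6, had a log2 fold change of 0.12 with Ang II at 6 h, -0.11 with Losartan and -0.07 with PD123319, and did not pass.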
